A study of Caenorhabditis elegans with 2 samples.

Results

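The genes described here make the cap of messenger RNA or bind it in the nucleus: cmtr-1 and cel-1 of cap formation, and ncbp-1 and ncbp-2 of the nuclear cap-binding complex. These 4 genes, of 19973 protein-coding genes in the annotation, were chosen from measured values of the same data, since cmtr-1 is listed because its promoter holds the strongest peak of the experiment. Their signal values and ranks are therefore given as a description, with no test. For each gene, peaks were taken whose summit lay between 1000 bp upstream of the gene start and the gene end, called the gene window below.

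The data come from chromatin immunoprecipitation with sequencing (ChIP-seq) in the nematode Caenorhabditis elegans. Strain OP754 carries the insertion wgIs754, in which the gene T20F7.1 ends in TY1, EGFP and 3xFLAG tags and is joined by the marker unc-119(+), in animals with the mutation unc-119(tm4063). Sonicated chromatin of whole L4 larvae, males and females pooled, at 48 hours and synchronised as starved L1 larvae after bleaching, was precipitated through the GFP tag. The study has 1 group, with 2 biological replicates that are separate biosamples of this single line. The peaks are those of a tagged transgene copy whose promoter the labels do not describe, they cannot be given to a tissue, and no untagged or input sample was analysed here.

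The cap is a methylated guanosine that is added to the start of a messenger RNA while RNA polymerase II is still making it. A capping enzyme, cel-1 in the worm, removes a phosphate from the new RNA and attaches the guanosine. Methyltransferases then modify the cap and the first nucleotides after it. CMTR1, the human counterpart of cmtr-1, methylates the ribose of the first transcribed nucleotide. In the nucleus the cap is held by a complex of a large and a small subunit, encoded in the worm by ncbp-1 and ncbp-2, which takes part in splicing and export. In C. elegans many messenger RNAs also receive a spliced leader, a short RNA that brings a cap of its own.

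The sequence at the strongest peak is shown because its letters recur at other peaks of cap genes. The stretch lies on ce11 at chrII:15025894-15026113, plus strand, which is all of the sequence between the start of the small nucleolar RNA gene Y53F4B.47 and the start of cmtr-1. Capitals mark a 9-letter word, GACNCTCCG with N for any base, and a 7-letter word, TTGTTTA or its complement TAAACAA. Both words were chosen after the sequences had been looked at, and all sequences are from the RefSeq WBcel235 genome.
cmtr-1 upstream: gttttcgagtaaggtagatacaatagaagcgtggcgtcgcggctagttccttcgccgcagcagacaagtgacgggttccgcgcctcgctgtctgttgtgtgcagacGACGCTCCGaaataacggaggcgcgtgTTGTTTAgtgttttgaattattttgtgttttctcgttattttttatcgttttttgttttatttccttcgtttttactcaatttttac

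The same words stood at the peaks of 3 other cap pathway genes whose sequence is shown, each written so that the 9-letter word reads forward. They are aly-2, an adaptor for RNA export, at chrIV:9147130-9147186 on the minus strand, ife-5, a cap-binding translation factor, at chrII:12280500-12280524 on the minus strand, and sna-1, a protein associated with spliced leader RNA, at chrV:6710638-6710665 on the minus strand. The ife-5 and sna-1 stretches are short because they lie in untranslated sequence, and the ife-5 stretch ends before its 7-letter word.
cmtr-1: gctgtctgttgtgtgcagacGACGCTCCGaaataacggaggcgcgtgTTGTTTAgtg
aly-2: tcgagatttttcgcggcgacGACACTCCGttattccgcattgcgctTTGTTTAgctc
ife-5: tgaacaacGACGCTCCGaaattcca
sna-1: aaTAAACAAggcgcgctacGACACTCCG

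The promoter of cmtr-1 (WBGene00013160), a gene at chromosome II 15026114 to 15037854 on the plus strand, held the strongest region of all lists. Signal values are those of the authors' deposited lists, on a scale that the sources used here do not state. At cmtr-1 the signal value was 3242 in replicate 1 and 2826 in replicate 2. The mean was 3034 ± 294 (SD, n = 2), and the pooled value was 6064. The region had rank 1 in both replicate lists, in the pooled list and in the list of 2586 IDR peaks. IDR, for irreproducible discovery rate, is meant to keep regions whose order holds between replicates. Here the 2586 IDR peaks were the 2586 strongest regions of the pooled list. Of these, 2442 had a summit of each replicate within 100 bp, so not every IDR peak is alike in both. Both replicates put the cmtr-1 region well above the next: rank 1 was 1.48 times rank 2 in replicate 1 and 1.31 times in replicate 2.

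The pooled summit lay at 15025976, which is 138 bp upstream of the cmtr-1 start. The summits of the replicates were 1 bp apart, whereas the median gap over the 2442 IDR peaks matched in both replicates was 22 bp. A gap of 1 bp or less was found at 6.59% of these matched peaks. At ncbp-1 the replicate summits were 2 bp apart and at ncbp-2 21 bp. At 676 bp the cmtr-1 region was wider than most, the median IDR peak being 440 bp and 21 IDR peaks being wider still. It held 0.885% of the summed signal of the IDR list, and its pooled signal was 42.2 times the median IDR peak of 144.

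The cmtr-1 summit is not in the promoter window of any other protein-coding gene. The gene upstream, Y53F4B.12, is on the same strand and ends 331 bp before cmtr-1. In this gap lies the small nucleolar RNA gene Y53F4B.47, at 15025814 to 15025893 on the minus strand, and the summit is 83 bp upstream of its start as well, nearer than to the start of cmtr-1. The summit therefore cannot be given to cmtr-1 alone, and which of these genes the peak bears on was not tested. Small nucleolar RNAs guide the chemical modification of other RNAs. Among the 10 strongest IDR peaks the next nearest to a small nucleolar RNA gene was 10575 bp away, at rank 2.

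Within the cmtr-1 gene there were 6 further pooled candidates, all in introns, with signal values between 37.4 and 80.4. The promoter peak was 75.4 times the strongest of them. None of the 6 was in the IDR list, whose weakest peak had a signal of 95.6. With its promoter peak the cmtr-1 window held 0.549 pooled candidates per kb, against 0.299 per kb over the genome. The windows of ncbp-1, cel-1 and ncbp-2 were also above the genome, with 0.845, 0.455 and 0.409 per kb. Upstream of cmtr-1 the next pooled candidate was 64059 bp from the gene start and the next IDR peak 226063 bp from it. The strongest peak thus stands alone on that side.

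**Figure D1:**
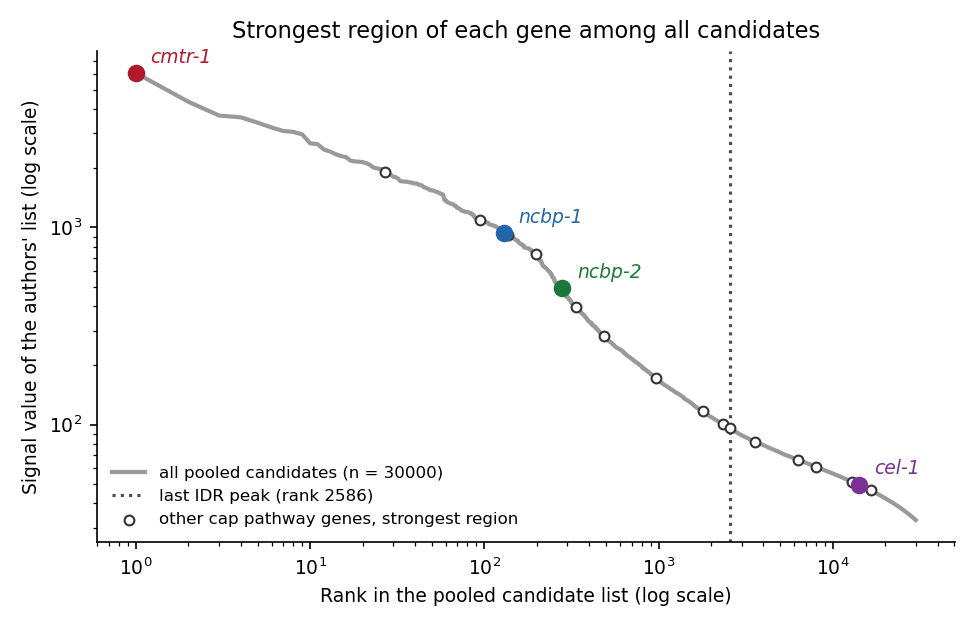
Signal value of the authors' list (log scale) against rank (log scale) for all 30000 pooled candidates (grey line). Filled points are the strongest region in the gene window of cmtr-1, ncbp-1, ncbp-2 and cel-1, open points those of other cap pathway genes, and the dotted line marks the last of the 2586 IDR peaks; cmtr-1 is at rank 1 with 6064 and cel-1 lies right of the line with 49.6.

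The nuclear cap-binding complex genes both had IDR peaks, each weaker than that of cmtr-1. At ncbp-1 (WBGene00018156), which encodes the large subunit and lies on chromosome I at 6422061 to 6425794, plus strand, the signal was 479 in replicate 1 and 461 in replicate 2, a mean of 470 ± 13.0 (SD, n = 2). The pooled value was 939. Its ranks were 128 in replicate 1, 133 in replicate 2 and 130 in the IDR list, so both replicates placed it alike. The region runs from 6421754 to 6422170.

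The ncbp-1 summit, at 6421967, is 94 bp upstream of the gene start and in intergenic sequence. It lies between divergent genes, 171 bp apart, and is 78 bp upstream of rbx-2, a RING-box protein gene on the other strand. It is closer to rbx-2 than to ncbp-1, so under a rule that gives a summit only to the protein-coding gene whose start is nearest it counts for rbx-2. The peak thus lies in a promoter that both genes share. Further candidates of the pooled list in the ncbp-1 window numbered 3, all in introns and with signal values between 39.6 and 62.1. The strongest of these, 107 bp inside the gene, is a second summit in the same region as the IDR peak.

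At ncbp-2 (WBGene00009141), the small subunit gene on chromosome I at 7641885 to 7643328, minus strand, the signal was 236 in replicate 1 and 249.9 in replicate 2, a mean of 243 ± 9.85 (SD, n = 2). The pooled value was 491, at rank 281, and the ranks in the replicates were 292 and 284. The region runs from 7643147 to 7643512. Its summit, at 7643303, is 25 bp inside the gene in the 5′ UTR, whereas the replicate 2 summit is 5 bp outside it. The start codon is 87 bp from the annotated gene start.

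No other gene window held the ncbp-2 summit apart from its own. The neighbour upstream is rrf-1, an RNA-dependent RNA polymerase gene on the same strand, which ends 102 bp before ncbp-2. The pooled and replicate 1 summits at ncbp-2 thus lie just inside the gene, those at ncbp-1 between divergent starts, and those at cmtr-1 in a tandem gap that also holds an RNA gene. In the ncbp-2 window the pooled list held only this region. Just outside the window, at 1078 bp upstream, it listed a candidate of 47.1 in an intron of rrf-1.

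The capping enzyme gene cel-1 (WBGene00000466) was the only one of the 4 without an IDR peak in its window. It lies on chromosome I at 9665251 to 9668650, plus strand. Its strongest pooled candidate, at 9665899 in an intron 648 bp inside the gene, had a signal of 49.6 and rank 14196. The replicates gave 31.6 and 24.7 there, with ranks of 8509 and 19301. The weakest IDR peak had 1.93 times its pooled value.

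Between cel-1 and npp-14, a nuclear pore protein gene on the other strand, there are 335 bp, and no list held a candidate summit there. The remaining candidates of the cel-1 window were weaker still. Pooled and replicate 1 lists each held a region in the 3′ UTR, with signals of 41.6 and 24.6, and replicate 1 another of 18.9 in a coding exon. The nearest IDR peak, of 335, was past the end of cel-1, 4015 bp from its start, in an intron of C03D6.1 and in front of the ribosomal protein gene rpl-24.2. It is outside the gene window.

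**Figure D2:**
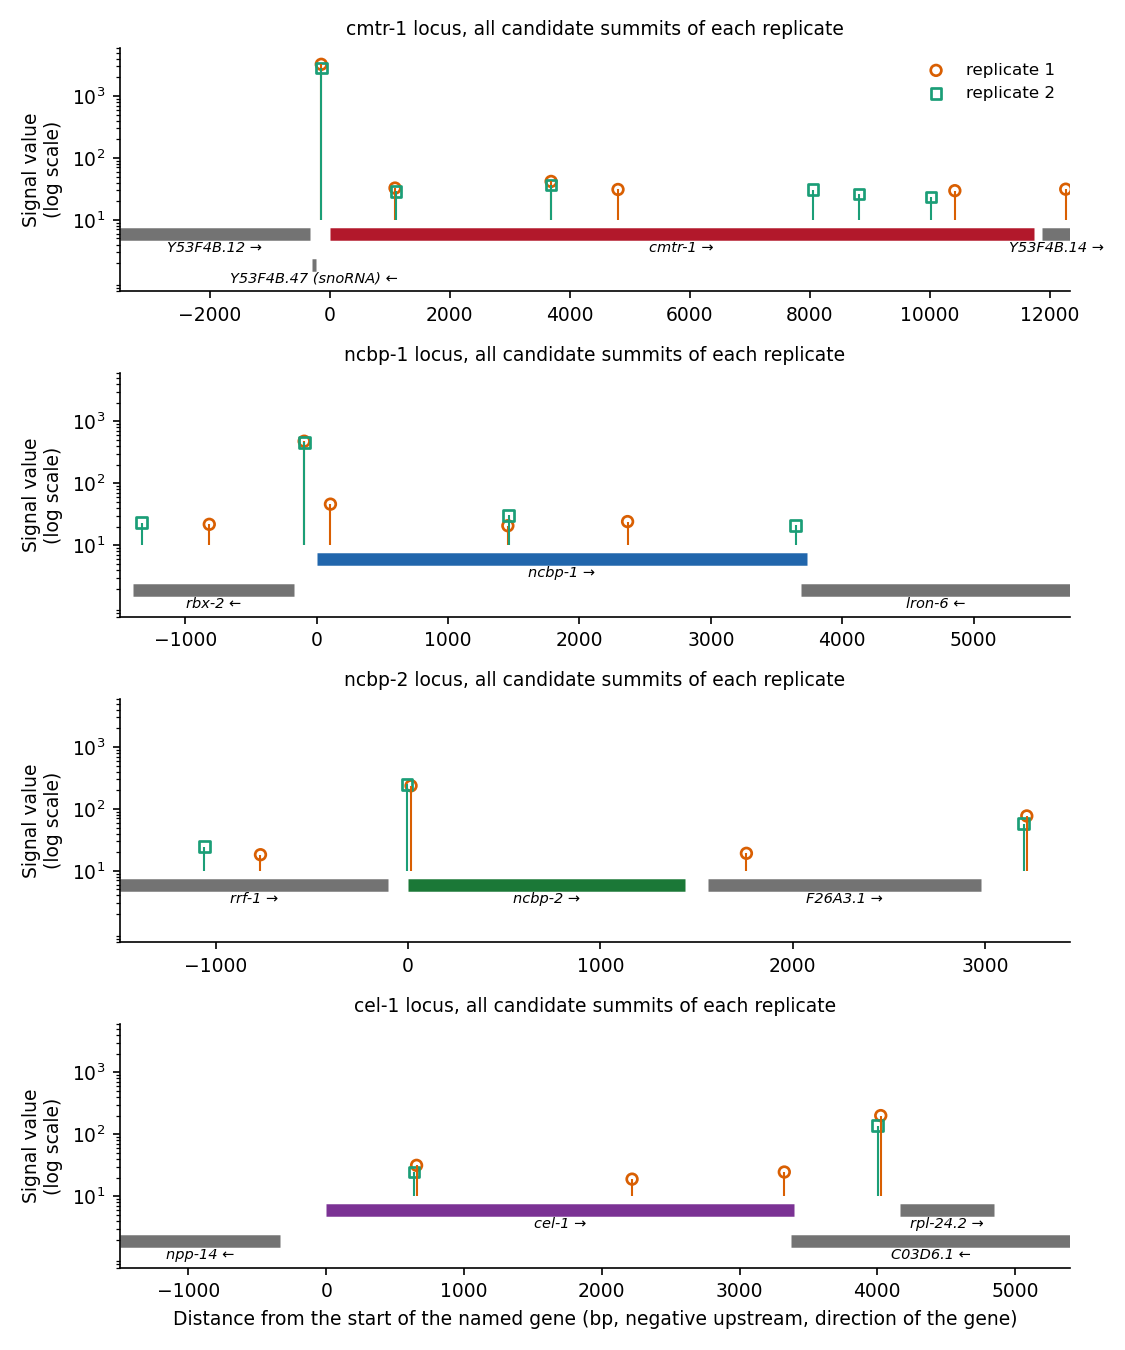
Candidate summits of replicate 1 (orange circles) and replicate 2 (green squares), with thin stems, by distance from the start of the named gene in bp (x) and signal value on a log scale (y), for the 4 genes; coloured and grey bars below are genes, with arrows for their direction. At cmtr-1, ncbp-1 and ncbp-2 a single position near the gene start is high in both replicates, with 3242 and 2826, 479 and 461, and 236 and 249.9; the high summits at cel-1 are past its end.

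In all, 3 of the 4 genes had an IDR peak in the gene window, as had 11.4% of all protein-coding genes. With a promoter window from 500 bp upstream to 100 bp downstream of the start they were again 3 of 4, beside 7.31% of all genes. These counts rest in part on the choice of cmtr-1, so nothing is read from them. Candidates of any strength are not rare: all 4 genes had a pooled one in the window, as had 49.9% of all genes. The same held for the candidates of replicate 1 and of replicate 2, at 51.4% of all genes in each.

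The order from cmtr-1 over ncbp-1 and ncbp-2 to cel-1 was the same in both replicates. In replicate 1 the cmtr-1 peak was 6.76 times that of ncbp-1, and in replicate 2 it was 6.13 times. The ratio of ncbp-1 to ncbp-2 was 2.03 and 1.84, and that of ncbp-2 to the strongest region of cel-1 was 7.47 and 10.1. On the log2 scale, replicate 2 differed from replicate 1 by -0.20 at cmtr-1, -0.06 at ncbp-1 and 0.08 at ncbp-2. These 3 lie between the quartiles of all matched IDR peaks (-0.21 and 0.29). At the strongest region of cel-1, which is no IDR peak, the difference was -0.35.

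The pooled value was close to the sum of the replicate values. At cmtr-1 the sum was 6068 beside a pooled 6064, at ncbp-1 940.4 beside 939, and at ncbp-2 486 beside 491. Over the matched IDR peaks the pooled value was a median of 1.00 times the sum, with 0.941 and 1.09 as the 5th and 95th percentiles. Pooled and single-replicate values should therefore not be set side by side as levels. All 3 peaks had a −log10 q of 3.01 in the authors' list, the largest value there, which 510 IDR peaks share and which does not separate them.

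Peaks of like strength were sought among 1409 genes with a promoter IDR peak matched in both replicates, by the distance of log2 signals over the 2 replicates. Nearest to cmtr-1 were rps-28, a ribosomal protein gene, timm-23, a gene of mitochondrial protein import, and luc-7L3, at distances of 0.68, 1.00 and 1.05. As cmtr-1 has rank 1, these are the peaks of ranks 2, 3 and 4, and all are weaker. Nearest to ncbp-1 were rps-1 (0.04), nol-6 (0.05) and let-711 (0.05). The rps-1 summit is the one counted below for ifet-1. Nearest to ncbp-2 were algn-6 and ubh-4, which share a summit (0.04), and cap-2 (0.06), whose product caps actin filaments and not RNA. In the IDR list ncbp-1 stood between the promoter peaks of wip-1 (941) and rpc-1 (938), an RNA polymerase III subunit gene. The peak of ncbp-2 stood between that of pdhk-2 (491.1) and an intergenic peak (487).

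The wider cap pathway was described through a list of 41 gene names, of which the annotation holds 37. An IDR peak lay in the gene window of 13 of the 37 (35.1%), and of 10 of the 33 genes (30.3%) other than the 4 described above, beside 11.4% of all protein-coding genes. The median of the strongest IDR signals was 339 over these 10 and 168 over the 2271 protein-coding genes with one. Of the rest, 6 had only weaker pooled candidates, 3 candidates in a single replicate list, and 15 none. A pooled candidate of any strength lay in the window of 19 of the 37, as it did for 49.9% of all protein-coding genes. The list was chosen with earlier results of these data known, so nothing is read from these shares. The summits of aly-2, nxf-1 and ifet-1 are also nearer to the start of another protein-coding gene.

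Among genes of cap formation, cmtr-2, whose human counterpart methylates the nucleotide after the first, had a weak IDR peak. It had signals of 55.1 and 67.2 in the replicates and 117 pooled, at rank 1796, with a summit 220 bp upstream of the start. That the cmtr-1 peak is above that of its relative follows from the choice of cmtr-1 for the strongest peak, and nothing is read from it. No candidate of any list was in the window of tgs-1, which encodes the enzyme that adds further methyl groups to the cap of spliced leader and small nuclear RNAs.

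The partners of the cap-binding complex in export held peaks of graded signal value. The aly-2 peak, at rank 27, had signals of 983 and 927 in the replicates and 1920 pooled. Its summit lies 326 bp upstream of aly-2 and 273 bp upstream of rpb-12, an RNA polymerase subunit gene on the other strand, and it is also in the window of daf-10. nxf-1, the export receptor gene, had 133 and 127 (282 pooled) at a summit 384 bp upstream, which is 101 bp upstream of the divergent C15H11.11. hel-1, an RNA helicase gene of the export machinery, had 82.6 and 92.1 (172 pooled) in an intron of C26D10.3, in a window that C26D10.4 shares. The related aly-3 had a pooled candidate of 51.3, while aly-1 and srrt-1 had none in any list.

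Of the cytoplasmic cap-binding genes, ifet-1 and ife-5 had IDR peaks. ifet-1, a repressor of translation that binds the cap-binding factor, had 469 and 456 (919 pooled) at 502 bp upstream of its start. That summit is 266 bp upstream of the ribosomal protein gene rps-1 and inside the non-coding RNA genes F56F3.10 and F56F3.11. ife-5 had 52.3 and 53.3 (101 pooled) at rank 2331, close to the weakest of the list. Its summit is 155 bp upstream of ife-5 and in the 3′ UTR of the neighbouring gene Y57A10A.29. ifg-1, the scaffold that joins the cap-binding factor to the ribosome, had 82.0 as its strongest pooled candidate. On the scale of a single replicate, ife-2 had a candidate of 74.1 at rank 1291, in replicate 1 alone. ife-3 had one of 59.4 at rank 2054, in replicate 2 alone, at the very edge of its window 1000 bp upstream. A second ife-3 candidate in replicate 2, of 37.6, was 286 bp upstream. The ranks of ife-5 in replicates 1 and 2 were 2373 and 2543. No candidate was found at ife-1 and ife-4.

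Genes that remove the cap, or act with those that do, had IDR peaks at dcap-1, cgh-1 and edc-3. dcap-1, a partner of the decapping enzyme, had 517 and 559 in the replicates and 1095 pooled, at rank 94 and 137 bp upstream of its start. cgh-1, an RNA helicase gene, had 181 and 205 (397 pooled), but its summit is 728 bp upstream. edc-3 had 96.0 pooled at rank 2564, and 59.3 in replicate 2, with no replicate 1 summit within 100 bp. Replicate 1 had a candidate of 38.8 at rank 4683 somewhat farther off, 86 bp upstream of the edc-3 start. The decapping enzyme gene dcap-2 had only a candidate of 32.8 in replicate 2 and eol-1, a relative of a mammalian decapping exonuclease, a pooled one of 61.3. There was none in any list at dcs-1, edc-4, patr-1, lsm-1 and xrn-1.

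Among spliced leader genes sna-1 had a peak of 426 in replicate 1 and 308 in replicate 2 (733 pooled) at rank 197. Its replicates differed more than those of the 3 cap genes, by -0.47 on the log2 scale. The summit is 32 bp inside the gene in its 5′ UTR. A weaker IDR peak of 100.4 pooled had its summit 168 bp upstream, in nearly the same region. This weaker peak had 50.8 in replicate 1 and 36.7 in replicate 2, at ranks 2522 and 6865. The sna-2 window held a pooled candidate of 66.2 and that of sna-3 none. The 5 genes listed as polymerase partners of capping had no IDR peak: cdk-7 had a pooled candidate of 46.5, and ama-1, spt-4, spt-5 and cyh-1 had none. This does not hold for all polymerase genes, since rpb-12, which is not on the list, shares the aly-2 summit. Each role of the list other than the polymerase partners thus had at least 1 gene with an IDR peak and at least 1 without.

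**Figure D3:**
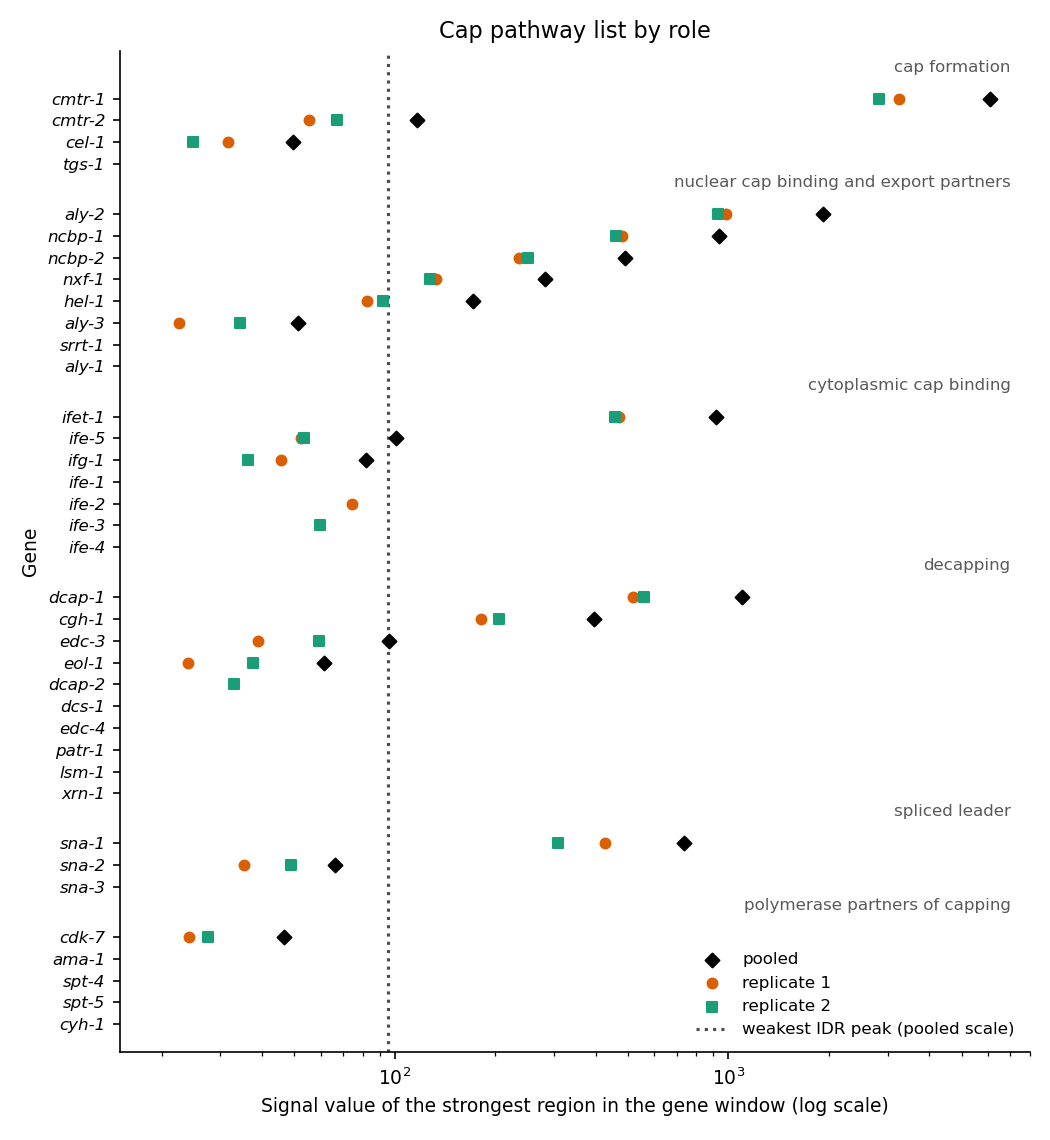
Strongest region in the gene window for the 37 cap pathway genes, grouped by role, as signal value on a log scale in the pooled list (black), replicate 1 (orange) and replicate 2 (green); genes without a point had no candidate. The dotted line is the weakest IDR peak, 95.6 on the pooled scale, and cmtr-1, aly-2, dcap-1, ncbp-1 and ifet-1 have the highest pooled values, 6064, 1920, 1095, 939 and 919.

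The sequences printed above are from peaks that hold the 9-letter word, so that they share it is a matter of how they were picked. GACNCTCCG was searched on both strands in the 101 bases around each summit. It was found at 5 of the 14 IDR peaks of list genes, those of cmtr-1 and ncbp-2, and also those of aly-2 and ife-5 and the stronger one of sna-1. At cmtr-1 its middle is 28 bp from the summit and 110 bp upstream of the gene start, and at ncbp-2 it is 3 bp from the summit. Of the 9 without it, ncbp-1 and ifet-1 had a best match of 7 of the 8 defined letters, hel-1, dcap-1 and edc-3 of 6, and cmtr-2, nxf-1, cgh-1 and the weaker peak of sna-1 of 5, while 11.4% of all IDR summits had at least 7. The window at cmtr-1 was also rich in G and C, with 64.4%, where the median over IDR summits was 38.6%. The intergenic sequence of cel-1 and npp-14 held neither word, its best match being 6 letters.

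The word was found at 109 of 2586 IDR summits (4.22%), and in 0.0967% of windows 350 bp to either side of them. Among pooled candidates outside the IDR list it stood at 0.0584%. Of all protein-coding genes 0.791% have it within 220 bases upstream of the start, the length of the cmtr-1 stretch and more than that of a summit window. It followed the rank closely: 48% of the strongest 50 peaks had it, 44% of ranks 51 to 100, 33% of ranks 101 to 200, 7.67% of ranks 201 to 500 and 0.512% or less of each group below. Since the word was read off strong peaks, the shares among them describe these peaks and test nothing. ife-5, at rank 2331, is among the few weak peaks with the word.

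**Figure D4:**
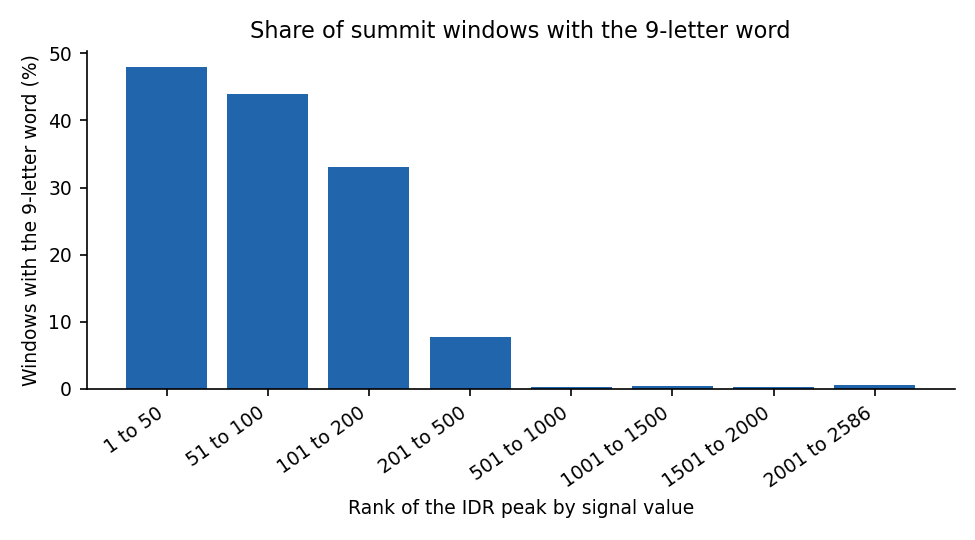
Share of IDR summit windows of 101 bases that hold the 9-letter word on either strand (percent, y), by groups of signal rank (x). The bars fall to 7.67% at ranks 201 to 500, against 48% at ranks 1 to 50, and are at 0.512% or less beyond.

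At each of the 5 list peaks with the 9-letter word, TTGTTTA stood near it, in one of a pair of arrangements. Read with the 9-letter word forward, it followed on the same strand after 18 bases at cmtr-1, 17 at aly-2 and 18 at ife-5. At ncbp-2 and sna-1 the arrangement was the other way, with TAAACAA 10 bases before the word. By itself the 7-letter word was common, with 207 of the 2586 IDR summit windows and 9.46% of the longer, 220-base upstream stretches of all protein-coding genes.

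Over the genome the 9-letter word occurs 1219 times, of which 124 (10.2%) are within 100 bp of an IDR summit. Of these, 72 (58.1%) had the 7-letter word within 40 bases, and of the 1064 that were farther than 100 bp from every pooled summit 10.5% had it. The cmtr-1 arrangement, with 17 or 18 bases between the words on the same strand, was found at 48 of the 124 (38.7%) and at 1.97% of the 1064. The ncbp-2 arrangement, with exactly 10 bases between the words, was found at 8 of the 124 (6.45%) and at 0.094% of the 1064. With 9 bases in place of 10, it was found at 0 of the 124 and at 43 of the 1064 (4.04%). The low share among distant words thus holds for the exact gap only. The words and these gaps were read off peaks of these data, so the shares near IDR summits describe them and test nothing. A match is a string of letters and not a measured binding site.

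**Figure D5:**
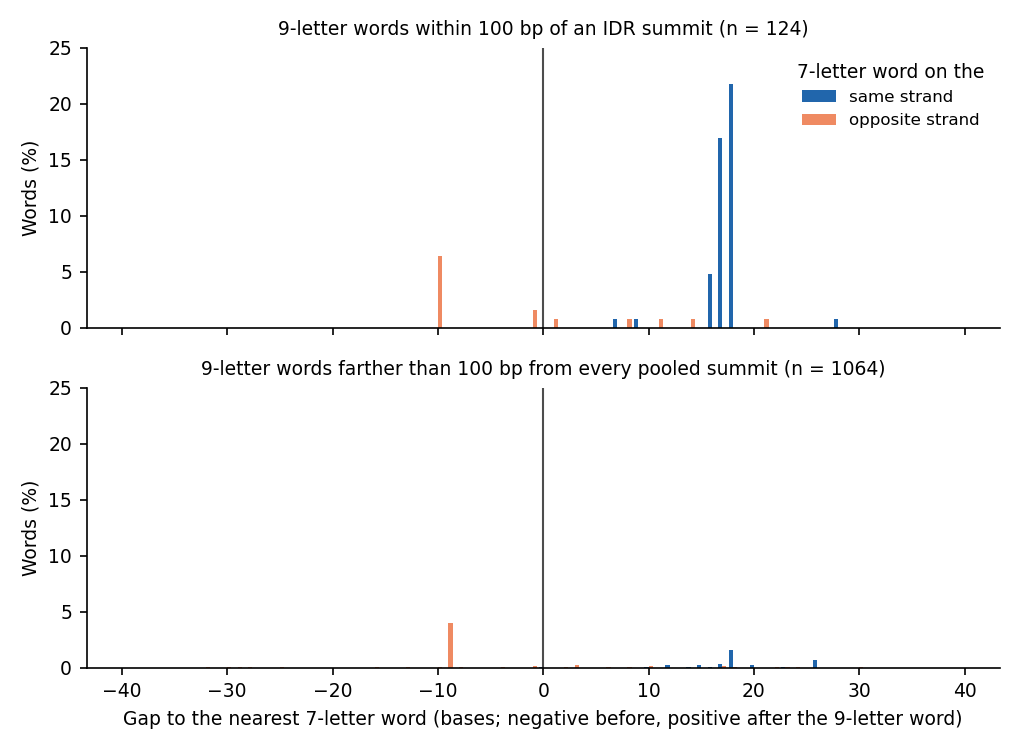
Bases between the 9-letter word and the nearest 7-letter word (x, negative before and positive after it) as a percent of 9-letter words (y), for the same strand (blue) and the opposite strand (orange). In the upper panel (124 words near IDR summits) bars stand at 16 to 18 bases after and at 10 before, the spacings of cmtr-1 and ncbp-2; in the lower panel (1064 words away from pooled summits) the highest bar is at 9 before on the opposite strand, with 4.04%.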

How the data were processed

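The 4 lists that the authors deposited, on ce11, are those of replicate 1, replicate 2 and both pooled, each of 30000 candidates, and that of the 2586 IDR peaks. Per the text deposited beside the lists, candidates were called against a control alignment, which was not analysed here. The signal value and the −log10 q-value of each region are the authors', as deposited, and the p-value column is not filled. The caller, the aligner and the signal scale were not given in the sources used here. The lists hold no read counts, so depth is unknown and its effect on weak candidates cannot be stated.

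Genes are from Ensembl release 115 (WBcel235, the ce11 sequence). Summits were computed from the start and offset of each region. Replicate summits within 100 bp were matched to a pooled summit, taking the strongest. One summit can count for several genes. The 4 genes, the pathway list and the words were chosen with earlier results of these data known. Genes named are the 4, all list genes, genes sharing their summits, the 3 most alike per gene, and neighbours in rank. Genes beside the 4 or holding a nearby summit (npp-14, rrf-1, Y53F4B.12, C03D6.1 and rpl-24.2) fall outside this rule and were named after their values were seen. Names on the list that the annotation does not hold are rnmt-1, pcif-1, dxo-1 and E01A2.2. Sequences were not printed for genes on chromosome I. No test was made, because there is 1 group. The assignment of summits and the word search were tested on simulated data. Python 3.11.15, numpy 2.4.6, pandas 2.3.3 and matplotlib 3.10.9 were used.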

Additional observations from a re-analysis of the deposited data

How the results depend on the processing

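The count of 3 of 4 cap genes with an IDR peak was the same with upstream limits of 500 and 2000 bp. It was also the same in the promoter window, with region overlap, at a −log10 q of 2 or above and in the stronger 50%. For either replicate alone, where no IDR list can be made, the stronger candidates of that replicate stood in, and the count was again 3. It was 2 when a summit counted only for the protein-coding gene whose start is nearest, where ncbp-1 was lost. It was 1 when genes of every type competed for the summit, an alternative chosen after seeing the data, where cmtr-1 was lost as well, to the small nucleolar RNA gene, and the count for the pathway list was 8. Under the other alternatives the count for the pathway list was between 9 and 14, against 13. It lost ncbp-1, aly-2, nxf-1 and ifet-1 to the nearest protein-coding start, ifet-1 and cgh-1 in the promoter window, and cmtr-2, ife-5 and edc-3 at the stricter q and among the stronger 50%. It gained aly-1 with 2000 bp upstream, ife-3 without replicate 1 and ife-2 without replicate 2, where edc-3 was lost. The share of all protein-coding genes moved most, to 7.31% in the promoter window, 6.31% at the stricter q and 6.76% in the stronger 50%, against 11.4%.

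Leaving out a replicate changes the scale, because pooled values are near the sum of both. The strongest value was then 2826 to 3242 at cmtr-1, 461 to 479 at ncbp-1, 236 to 249.9 at ncbp-2 and 24.7 to 31.6 at cel-1, in the same order each time. The cel-1 promoter window held no pooled candidate and gave no value. No paired analysis was possible because there is a single group. The lists give no depth, so what it limits at the weak candidates of cel-1, with ranks of 8509 and 19301 in the replicates, cannot be stated.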
